A study of Mus musculus with 39 samples.

Results

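The genes described here are 10 transcripts used to mark resident-like and alternatively activated macrophages, out of 24062 genes counted in 39 libraries. They were taken by symbol: Sepp1, Folr2, Lyve1, Mrc1, Cd163, F13a1 and Pf4 for the resident-like state, and Arg1, Chi3l3 and Retnla for alternative activation. The counts list 9 of them under those symbols, and Chi3l3 was read from its current symbol, Chil3, through the synonyms of RefSeq. The samples were CD68-rich areas of atherosclerotic plaque, cut by laser from 6 µm sections of aortic roots. All mice were female, of the strain B6.129P2-Apoe<tm1Unc>, and so lacked Apoe in every group, PBS included. They ate a high-cholesterol diet for 12 weeks, were 20 weeks old at treatment, received 4 intravenous injections over 7 days and were killed 24 hours after the last one.

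The groups were TRAF6i-HDL (10 samples), mTORi-HDL (10 samples), S6K1i-HDL (9 samples) and PBS (10 samples). TRAF6 is an adaptor of CD40 signalling, mTOR is a kinase that couples nutrients to growth, and S6K1 is a kinase downstream of mTOR. Each inhibitor was carried by a high-density lipoprotein (HDL) nanoparticle at 5 mg/kg of drug. In the protocol the particles are named CD40-HDL and, by drug, rapamycin-HDL or PF-4708671-HDL. It also lists empty rHDL, but no sample here received it. An effect of a drug and an effect of its carrier therefore cannot be told apart against PBS. The labels do not tie samples to animals, so the p-values measure the spread between samples.

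Macrophages that settle in a tissue before birth or renew there tend to carry scavenging receptors, such as the mannose receptor and the folate receptor beta, and to secrete selenoprotein P and the chemokine CXCL4. In the arterial wall such cells are found mostly in the adventitia and express Lyve1 and Folr2. Interleukin-4 and interleukin-13 act through STAT6 to induce arginase 1, the chitinase-like protein Ym1 and resistin-like alpha, the genes of alternative activation in the mouse.

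The members differed widely in abundance. On the scale of median CPM (counts scaled to library size) per kilobase of exon, Sepp1 stood at 731 in TRAF6i-HDL, 347 in mTORi-HDL, 566 in S6K1i-HDL and 976 in PBS. Folr2 came next, at 10.9 to 16.1 over the group medians. Below it lay Mrc1 (5.95 to 7.82), Pf4 (3.58 to 8.20), Chi3l3 (2.06 to 7.38) and F13a1 (1.5 to 4.12), in an order that differed between groups. Lyve1 and Arg1 had medians of 0.186 to 1.28 on this scale, and Cd163 and Retnla had a median of 0 in 3 and 4 of the 4 groups. A filter on low counts left 6 of the 10 members for testing, which were Sepp1, Folr2, Mrc1, F13a1, Pf4 and Chi3l3. The other 4 are described by their counts alone.

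The results turned on Sepp1, F13a1 and Chi3l3, so the sequence around the start of each gene is shown before the values. RefSeq gives a promoter window of 300 bases for 8 of the 10 members on build GRCm38.p6, and for a gene with several starts the most upstream one was taken. Lyve1 and Arg1 had no entry. The windows were searched on both strands for GAGGAA, the core bound by PU.1, the lineage factor of macrophages, and capitals mark GAGGAA or its reverse complement TTCCTC in the first pair. The Sepp1 window (chr15:3270517-3270816, plus strand) held 1 match and the F13a1 window (chr13:37050195-37050494, minus strand) held 2.
Sepp1: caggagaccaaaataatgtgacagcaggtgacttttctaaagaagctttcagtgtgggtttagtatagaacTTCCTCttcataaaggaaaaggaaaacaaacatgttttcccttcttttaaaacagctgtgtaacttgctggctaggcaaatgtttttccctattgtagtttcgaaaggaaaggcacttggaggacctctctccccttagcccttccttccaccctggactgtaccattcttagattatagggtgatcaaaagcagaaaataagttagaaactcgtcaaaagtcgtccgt
F13a1: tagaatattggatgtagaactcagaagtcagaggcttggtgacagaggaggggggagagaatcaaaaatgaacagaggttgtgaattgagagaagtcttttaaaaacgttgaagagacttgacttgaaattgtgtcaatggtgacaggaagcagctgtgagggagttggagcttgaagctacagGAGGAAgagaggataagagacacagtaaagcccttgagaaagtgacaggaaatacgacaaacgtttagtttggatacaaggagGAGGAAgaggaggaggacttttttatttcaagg

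Over all 32851 promoter windows of the same length, 28.3% held GAGGAA. Of the 8 members with a window, 5 held it, which were Sepp1, Mrc1, F13a1, Pf4 and Retnla. The palindrome bound by STAT6 (TTC, 4 bases of any kind, GAA) stood in 6.95% of all windows and in those of Sepp1 and Retnla. A match of letters is a description of the window and does not show binding.

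For Chi3l3 the sequence bears on what was counted. Chil3 (the Chi3l3 row) has a close neighbour, Chil4, whose longest transcript aligned with that of Chil3 over 1538 bases at 94.4% identity, with 136 bases as the longest identical run. The windows of Chil3 (chr3:106167515-106167814, minus strand) and Chil4 (chr3:106219430-106219729, minus strand) share a run of 53 bases, in capitals below, that covers the end of the promoter and the start of the transcript.
Chil3: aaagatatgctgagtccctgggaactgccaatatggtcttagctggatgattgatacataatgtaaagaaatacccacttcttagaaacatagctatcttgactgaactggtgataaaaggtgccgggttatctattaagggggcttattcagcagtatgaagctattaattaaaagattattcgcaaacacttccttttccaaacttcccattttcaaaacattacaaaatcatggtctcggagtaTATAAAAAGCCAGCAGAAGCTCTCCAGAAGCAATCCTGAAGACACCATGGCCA
Chil4: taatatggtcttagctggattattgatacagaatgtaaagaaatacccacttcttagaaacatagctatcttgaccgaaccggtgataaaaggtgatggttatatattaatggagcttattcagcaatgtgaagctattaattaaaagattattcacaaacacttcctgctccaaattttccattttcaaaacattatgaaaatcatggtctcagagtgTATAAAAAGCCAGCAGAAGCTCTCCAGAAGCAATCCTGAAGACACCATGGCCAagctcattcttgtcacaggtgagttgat
Chil4 had 0 counts in all 39 libraries. Reads without a unique alignment were set apart as unassigned, at 11.7% (mTORi-HDL replicate 7) to 21.6% (S6K1i-HDL replicate 4) of a library's reads. The alignment settings, and how many of these reads came from Chil3 or Chil4, are not given in the sources used here. The Chi3l3 values are therefore those of the row and carry that uncertainty.

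Counts assigned to genes ran between 66602 and 3977229 in TRAF6i-HDL, 1825755 and 4875794 in mTORi-HDL, 118527 and 6833491 in S6K1i-HDL and 50091 and 3314493 in PBS. The 3 libraries under 200000 counts were TRAF6i-HDL replicate 7, S6K1i-HDL replicate 1 and PBS replicate 9. Rn45s, the precursor of ribosomal RNA, took a median of 15.9% of the gene counts in TRAF6i-HDL, 25.6% in mTORi-HDL, 41.8% in S6K1i-HDL and 7.49% in PBS. PBS replicates 7 to 10 stood apart from PBS replicates 1 to 6, at 15.0% to 30.0% against 2.28% to 7.89%, and the results against PBS are therefore also given without these 4 libraries. This alternative was chosen after the data were seen, and the same 4 libraries had the lowest Sepp1 levels of the PBS group. All 16 macrophage markers were detected in each group, and their summed level had medians of 17800, 14800, 12700 and 19100 CPM in that order of groups, within ranges of 11200 to 26100, 7530 to 19900, 10200 to 15300 and 5840 to 28000 CPM. Lyz2 and Ctss had the highest means of the 16 in each group and weigh most in the sum. Ctss averaged 3207 CPM in S6K1i-HDL and 8133 CPM in PBS, while Cd68 averaged 878 and 812 CPM. In S6K1i-HDL against PBS, 0 of the 16 were higher and 3 lower, with a median log2 fold change of -0.0967. In bulk tissue, fewer cells of a type and less RNA per cell cannot be told apart. Markers of fibroblasts (8 of 8 detected, group medians 4890 to 5130 CPM), endothelium (8 of 8, 451 to 775 CPM), smooth muscle (6 of 6, 257 to 486 CPM) and T cells (6 of 6 listed in the files, 325 to 387 CPM) were present in each group as well.

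Of the 6 tested members, none passed the threshold in TRAF6i-HDL against PBS, where 0.0192% of all 10411 tested genes did. One was lower in mTORi-HDL than in PBS (Sepp1), beside 1.64% of all genes called in either direction and 1.02% called lower. One was lower in S6K1i-HDL than in PBS (F13a1), beside 11.9% of all genes and 6.47% lower. These 3 comparisons share the PBS libraries. Without PBS replicates 7 to 10 the calls were 0 in TRAF6i-HDL against PBS, 3 in mTORi-HDL against PBS (Sepp1, Pf4 and Folr2, all lower) and 1 in S6K1i-HDL against PBS (Sepp1, lower, in place of F13a1), beside 1.33%, 11.7% and 17.7% of the 11092 genes then tested. Between inhibitors, Sepp1 was higher in TRAF6i-HDL than in mTORi-HDL (2.92% of all genes called, 1.56% higher), Chi3l3 was higher in mTORi-HDL than in S6K1i-HDL (6.18% of all genes called, 3.5% higher), and no member passed in TRAF6i-HDL against S6K1i-HDL (1.59% of all genes called). At an unadjusted p under 0.05, edgeR gave 2 members in TRAF6i-HDL against PBS and 2 in TRAF6i-HDL against S6K1i-HDL, beside 11.1% and 15.8% of all genes, and the DESeq2 Wald test and limma-voom gave 0 past the threshold in both. The threshold is a Benjamini-Hochberg adjusted p under 0.05 from edgeR's quasi-likelihood test over all 10411 genes, and errors of log2 fold changes are standard errors.

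**Figure D1:**
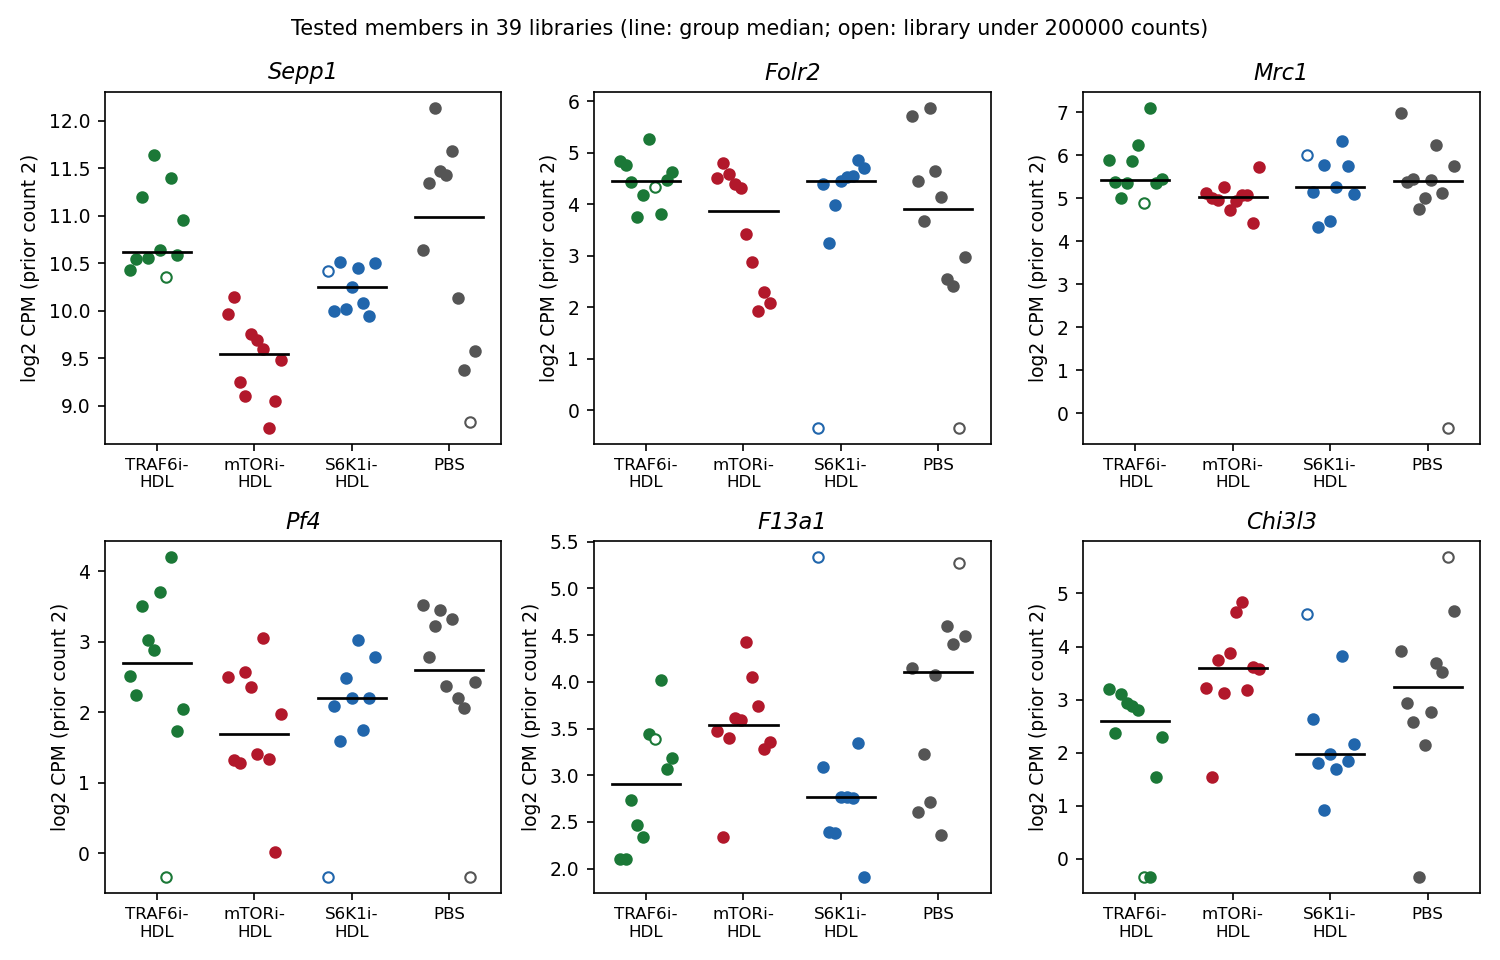
Level of the 6 tested members in each of the 39 libraries, as log2 CPM with a prior count of 2, with 1 point a library, a line at each group median and open points for the 3 libraries under 200000 counts. The Sepp1 points of TRAF6i-HDL, all at or above 1306 CPM, lie over those of mTORi-HDL, all at or below 1130 CPM, while the PBS points run from 455 to 4490 CPM and overlap both.

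Sepp1 encodes selenoprotein P, a secreted carrier of selenium that macrophages also make. Its level in the 10 mTORi-HDL libraries had a lowest value of 436, a median of 744 and a highest value of 1130 CPM, against 455, 2094 and 4490 CPM in the 10 PBS libraries. All 10 mTORi-HDL libraries lay below the PBS mean, but the groups overlapped, since 4 PBS libraries (replicates 7 to 10) stood at 455 to 1126 CPM. The log2 fold change of Sepp1 in mTORi-HDL against PBS was -1.48 ± 0.27 (0.359-fold; adjusted p = 0.0025), the sixth smallest p of all genes in that comparison. Leaving out PBS replicates 7 to 10 gave -2.01 ± 0.20 (adjusted p = 5.21e-10). As these were the PBS libraries lowest in Sepp1, the difference was bound to widen, and that fit is no separate support. Of the 16 macrophage markers, 1 was higher and 1 lower in mTORi-HDL than in PBS (median -0.106), and 1 of 3 tested T cell markers was lower.

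The TRAF6i-HDL libraries held Sepp1 at a lowest value of 1306, a median of 1568 and a highest value of 3186 CPM, against 436, 744 and 1130 CPM in mTORi-HDL. The groups did not overlap: 10 of 10 TRAF6i-HDL libraries lay above the highest mTORi-HDL library. The log2 fold change was 1.36 ± 0.27 (2.57-fold; adjusted p = 0.00207). In the same comparison 4 of 16 macrophage markers were higher and 1 lower (median log2 fold change 0.295), 1 of 3 tested T cell markers was higher and 1 of 4 tested monocyte markers was lower.

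In S6K1i-HDL, Sepp1 had a lowest value of 985, a median of 1214 and a highest value of 1456 CPM, the narrowest range of the 4 groups. All 9 S6K1i-HDL libraries lay below the PBS mean of 2056 ± 1336 CPM (SD, n = 10), yet within the PBS range. The difference against PBS, -0.76 ± 0.27 on the log2 scale, missed the threshold (adjusted p = 0.0578). It passed when any 1 of PBS replicates 7, 8, 9 or 10 was left out, at adjusted p = 0.042, 0.0227, 0.0197 and 0.0242. Without all 4 it was -1.29 ± 0.20 (adjusted p = 2.75e-05). Those 4 libraries held the lowest Sepp1 levels of the PBS group. Leaving them out was bound to widen a difference below PBS, so these fits are no separate support.

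Ordered by median, Sepp1 was highest in PBS, then in TRAF6i-HDL, S6K1i-HDL and mTORi-HDL. No pair of neighbours in that order differed beyond the threshold. TRAF6i-HDL against PBS gave -0.12 ± 0.26 (adjusted p = 0.92; 95% interval of the log2 difference -0.63 to 0.39), TRAF6i-HDL against S6K1i-HDL gave 0.64 ± 0.27 (adjusted p = 0.22), and mTORi-HDL against S6K1i-HDL gave -0.72 ± 0.27 (adjusted p = 0.102). Without PBS replicates 7 to 10 these values were -0.64 ± 0.20 (adjusted p = 0.0776), 0.65 ± 0.18 (adjusted p = 0.0401) and -0.72 ± 0.18 (adjusted p = 0.00754). The value against PBS was bound to fall, since the libraries left out were the PBS libraries lowest in Sepp1. mTORi-HDL against S6K1i-HDL passed in 7 of 13 alternatives, with adjusted p = 0.00209 to 0.15 over all of them. Of the 10 mTORi-HDL libraries, 8 lay below the lowest S6K1i-HDL library.

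The share of Rn45s moved with Sepp1. The 6 PBS libraries numbered 1 to 6 had Sepp1 at 1594 to 4490 CPM and Rn45s at 2.28% to 7.89% of gene counts, and PBS replicates 7 to 10 had Sepp1 at 455 to 1126 CPM and Rn45s at 15.0% to 30.0%. Over the 36 libraries with at least 200000 counts, and after each group's mean was taken off, Pearson's r of the log2 level with the log2 Rn45s share was -0.646 for Sepp1, -0.605 for Pf4, -0.387 for Folr2, -0.283 for Mrc1, 0.131 for F13a1 and 0.234 for Chi3l3, given as a description. With the log2 of the library's counts, r was -0.53 for Sepp1 and 0.563 for Chi3l3, and -0.382 to 0.0609 for the other 4. With the log2 Rn45s share as a covariate, Sepp1 in mTORi-HDL against PBS was -0.78 ± 0.25 (adjusted p = 0.212) and no longer passed. TRAF6i-HDL against mTORi-HDL, at 1.15 ± 0.21, still did (adjusted p = 0.000865). In S6K1i-HDL against PBS the covariate turned the sign of Sepp1, to 0.24 ± 0.29 (adjusted p = 0.824). The covariate changed the calls over all genes as well. They went from 1.64% to 0.202% in mTORi-HDL against PBS and from 11.9% to 0.365% in S6K1i-HDL against PBS. In TRAF6i-HDL against mTORi-HDL they went from 2.92% to 4.18%.

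**Figure D2:**
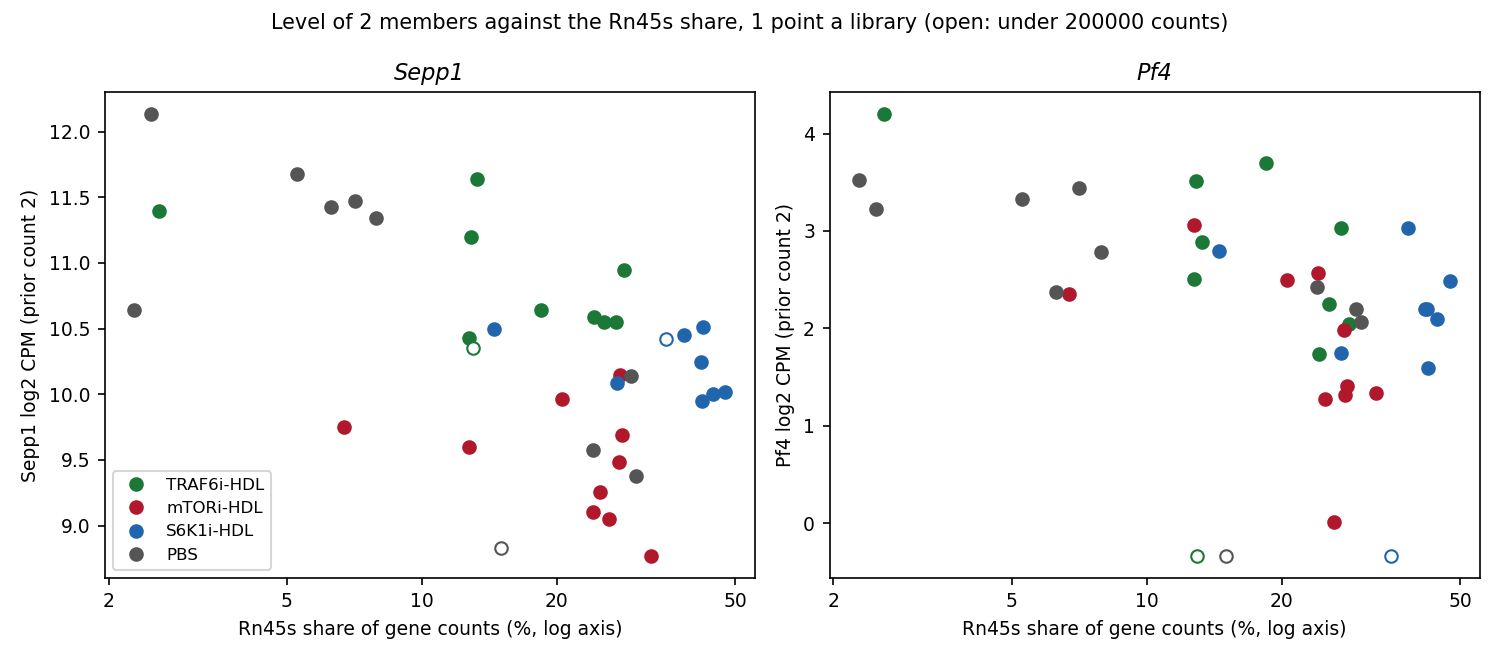
Sepp1 (left) and Pf4 (right) as log2 CPM against the share of gene counts in Rn45s on a log axis, with 1 point a library, coloured by group, and open points for libraries under 200000 counts. The PBS points fall into a low Rn45s range of 2.28% to 7.89% with Sepp1 at 1594 CPM or more and a range of 15.0% to 30.0% with Sepp1 at 1126 CPM or less.

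Set against the mean log2 CPM of the 16 macrophage markers in the same library, Sepp1 stood at a median of 2.54 in TRAF6i-HDL, 1.53 in mTORi-HDL, 2.22 in S6K1i-HDL and 2.74 in PBS on the log2 scale. The lowest and highest of these differences were 2.14 and 3.42 in TRAF6i-HDL, 1.06 and 2.17 in mTORi-HDL, 1.93 and 2.79 in S6K1i-HDL and 1.49 and 3.83 in PBS. With the marker mean as a covariate, the log2 difference of Sepp1 was -1.28 ± 0.22 in mTORi-HDL against PBS (adjusted p = 0.00237) and 1.00 ± 0.23 in TRAF6i-HDL against mTORi-HDL (adjusted p = 0.025).

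Pf4, the gene of the chemokine CXCL4, is made by platelets and by tissue macrophages. Its level had a lowest value, median and highest value of 0, 5.74 and 17.6 CPM in TRAF6i-HDL, 0.217, 2.50 and 7.53 CPM in mTORi-HDL, 0, 3.8 and 7.38 CPM in S6K1i-HDL, and 0, 5.34 and 10.7 CPM in PBS. All groups overlapped, and the 3 libraries at 0 were those under 200000 counts. Pf4 was -0.96 ± 0.38 in mTORi-HDL against PBS (adjusted p = 0.164) and 1.13 ± 0.36 in TRAF6i-HDL against mTORi-HDL (adjusted p = 0.0762), neither past the threshold. The second of these passed in 2 of 13 alternatives, the DESeq2 Wald test (1.19, adjusted p = 0.0393) and limma-voom (1.42, adjusted p = 0.0171), and was 0.44 ± 0.43 with the macrophage marker covariate (adjusted p = 0.8). The first passed in 1 of 14 alternatives, without PBS replicates 7 to 10 (-1.31 ± 0.43, adjusted p = 0.0354), and was -0.37 ± 0.38 with the Rn45s covariate (adjusted p = 0.832). Markers of platelets and megakaryocytes had summed medians of 9.68, 7.73, 6.68 and 7.68 CPM over 8 genes in TRAF6i-HDL, mTORi-HDL, S6K1i-HDL and PBS. Each sum lay above the Pf4 median of its group. Ppbp, a defining one, had 29, 17, 15 and 4 counts in all in the same order of groups. Gp1ba (33, 74, 76 and 36) and Clec1b (73, 31, 79 and 28) had more, and Gp9 (0, 4, 3 and 1) and Gp5 (5, 5, 10 and 2) fewer. The part of platelets in the Pf4 values was not tested.

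F13a1 encodes the A chain of coagulation factor XIII, a crosslinking enzyme carried by monocytes and by some tissue macrophages. In S6K1i-HDL its lowest value, median and highest value were 2.98, 6.01 and 39.5 CPM, against 4.35, 16.5 and 37.9 CPM in PBS. Of the 9 S6K1i-HDL libraries, 8 lay below the PBS mean, at 9.37 CPM or less, and the other one, replicate 1, held 5 F13a1 counts among 118527. The groups overlapped, since 4 PBS libraries stood at 4.35 to 8.58 CPM and the other 6 at 16.1 to 37.9 CPM. PBS replicates 7 to 10, the libraries with a high Rn45s share, had F13a1 at 20.4 to 37.9 CPM, above PBS replicates 1 to 6 at 4.35 to 16.9 CPM. The highest of these values, in PBS replicate 9, rested on 3 counts among 50091. The log2 fold change of F13a1 in S6K1i-HDL against PBS was -1.20 ± 0.32 (0.436-fold; adjusted p = 0.0109). Without PBS replicates 7 to 10 the difference was -0.59 ± 0.37 and did not pass (adjusted p = 0.273). Those libraries held the highest F13a1 levels of the PBS group. Leaving them out was bound to shrink the difference, so that fit cannot show what the call rested on. Over all libraries it kept its side of the threshold with the Rn45s covariate (-1.49 ± 0.37, adjusted p = 0.0477) and with the macrophage marker covariate (-1.27 ± 0.31, adjusted p = 0.00622).

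The TRAF6i-HDL libraries had F13a1 at a lowest value of 3.5, a median of 6.73 and a highest value of 15.4 CPM. All 10 lay below the PBS mean, and 3 below the lowest PBS library. The log2 difference of TRAF6i-HDL against PBS was -1.13 ± 0.33 and did not pass (adjusted p = 0.178), nor without PBS replicates 7 to 10 (-0.52 ± 0.37, adjusted p = 0.476). Over all libraries its size was close to that of S6K1i-HDL against PBS, in a comparison where 2 genes in all passed. TRAF6i-HDL against S6K1i-HDL gave 0.065 ± 0.33 (95% interval -0.59 to 0.72), which leaves room for a difference of either sign.

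F13a1 in mTORi-HDL stood at a lowest value of 4.26, a median of 10.8 and a highest value of 20.7 CPM, between the other inhibitors and PBS. Against PBS the log2 difference was -0.32 ± 0.29 (adjusted p = 0.591), and without PBS replicates 7 to 10 its sign turned (0.28 ± 0.35, adjusted p = 0.648). TRAF6i-HDL against mTORi-HDL gave -0.81 ± 0.31 (adjusted p = 0.153) and mTORi-HDL against S6K1i-HDL gave 0.87 ± 0.30 (adjusted p = 0.0726). Without the 3 libraries under 200000 counts the last of these was 0.99 ± 0.29 and passed (adjusted p = 0.0284). The summed level of 8 monocyte markers, which could also carry F13a1, had medians of 195 CPM in TRAF6i-HDL, 263 CPM in mTORi-HDL, 155 CPM in S6K1i-HDL and 255 CPM in PBS, within ranges of 156 to 240, 193 to 482, 101 to 226 and 160 to 371 CPM. For these markers, as for F13a1, S6K1i-HDL had the lowest median and TRAF6i-HDL the next, and 1 of 4 tested monocyte markers and 3 of 16 macrophage markers were lower in S6K1i-HDL than in PBS (medians -0.518 and -0.0967). The part of monocytes in the F13a1 values was not tested.

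Among the scavenging receptors, Folr2, the folate receptor beta, had a lowest value, median and highest value of 12.6, 21.1 and 37.8 CPM in TRAF6i-HDL, 3.03, 14.5 and 27.3 CPM in mTORi-HDL, 0, 21.2 and 28.1 CPM in S6K1i-HDL, and 0, 14.4 and 57.7 CPM in PBS. None of its 6 comparisons passed over all libraries. In mTORi-HDL, replicates 1 to 5 held Folr2 at 19.0 to 27.3 CPM and replicates 6 to 10 at 3.03 to 9.88 CPM, with no overlap. The series lists mTORi-HDL replicates 1 to 4 and 5 to 10 apart, for a reason not given in the labels. With the first run alone, Folr2 against PBS was 0.18 ± 0.43 (adjusted p = 0.915), and with the second alone -1.44 ± 0.46 (adjusted p = 0.107). PBS replicates 7 to 10 were also low, at 0 to 7.03 CPM, against 12.0 to 57.7 CPM in the other 6 PBS libraries. The 0 in PBS came from replicate 9, which held 50091 counts, and the 0 in S6K1i-HDL from replicate 1, which held 118527. Without PBS replicates 7 to 10, Folr2 in mTORi-HDL against PBS was -1.17 ± 0.39 and passed (adjusted p = 0.0483), the 1 alternative of 15 in which it did.

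Mrc1 encodes the mannose receptor CD206, an endocytic receptor often used as a marker of alternative activation. Its lowest value, median and highest value were 29.0, 42.0 and 136 CPM in TRAF6i-HDL, 20.6, 32.0 and 52.0 CPM in mTORi-HDL, 19.3, 37.4 and 79.2 CPM in S6K1i-HDL, and 0, 41.5 and 126 CPM in PBS. All groups overlapped, and the value of 0 came from PBS replicate 9, which held 50091 counts. Mrc1 in mTORi-HDL was -0.65 ± 0.27 against PBS (adjusted p = 0.198), and TRAF6i-HDL against mTORi-HDL was 0.74 ± 0.27 (adjusted p = 0.136). TRAF6i-HDL against mTORi-HDL passed in 3 of 13 alternatives, among them the DESeq2 Wald test (0.80, adjusted p = 0.0456) and the fit of only these groups (0.74, adjusted p = 0.0371). With the macrophage marker covariate it was 0.36 ± 0.32 (adjusted p = 0.766). TRAF6i-HDL against PBS gave 0.087 ± 0.28, with a 95% interval of -0.46 to 0.63.

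Lyve1, the hyaluronan receptor of resident arterial macrophages and of lymphatic vessels, had 40 counts in TRAF6i-HDL, 26 in mTORi-HDL, 33 in S6K1i-HDL and 20 in PBS, summed over each group's libraries. Over the summed libraries the CPM was 2.1 in TRAF6i-HDL (exact Poisson 95% interval 1.5 to 2.86), 0.844 in mTORi-HDL (interval 0.552 to 1.24), 0.976 in S6K1i-HDL (interval 0.672 to 1.37) and 1.35 in PBS (interval 0.827 to 2.09). It was detected in 7 of 10, 9 of 10, 8 of 9 and 7 of 10 libraries. These intervals cover counting error alone and not the spread between samples. In the fit with no low-count filter, over 18317 genes, Lyve1 in TRAF6i-HDL against mTORi-HDL was 1.38 ± 0.57 (adjusted p = 0.209). Of the lymphatic markers, Ccl21a had 0 counts in all libraries, and Prox1 had mean levels of 9.63, 14.7, 9.17 and 7.11 CPM in TRAF6i-HDL, mTORi-HDL, S6K1i-HDL and PBS. The part of lymphatic cells in the Lyve1 counts was not tested.

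Cd163, the receptor for haemoglobin bound to haptoglobin, had few counts in any group. There were 2 counts in TRAF6i-HDL, 3 in mTORi-HDL, 14 in S6K1i-HDL and 1 in PBS, in 2, 3, 5 and 1 libraries. Of the 14 counts in S6K1i-HDL, 8 came from replicate 7, the deepest library of the study at 6833491 counts. The CPM over the summed libraries was 0.105 in TRAF6i-HDL (interval 0.0127 to 0.379), 0.0974 in mTORi-HDL (interval 0.0201 to 0.285), 0.414 in S6K1i-HDL (interval 0.226 to 0.695) and 0.0677 in PBS (interval 0.00171 to 0.377). With no low-count filter, S6K1i-HDL against PBS was 1.90 ± 0.89 and did not pass (adjusted p = 0.203).

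Of the genes of alternative activation, Chi3l3, which encodes the chitinase-like protein Ym1, was the one with enough counts to test. In mTORi-HDL its lowest value, median and highest value were 2.13, 11.4 and 27.9 CPM, against 1.11, 3.17 and 23.7 CPM in S6K1i-HDL. Of the 10 mTORi-HDL libraries, 9 lay above the S6K1i-HDL mean and 2 above the highest S6K1i-HDL library, so the groups overlapped. The highest S6K1i-HDL value came from replicate 1, with 3 counts among 118527. The log2 fold change of mTORi-HDL against S6K1i-HDL was 1.44 ± 0.42 (2.72-fold; adjusted p = 0.0301). In this comparison 4 of 8 endothelial markers (median log2 fold change 0.725) and 1 of 4 tested monocyte markers (median 0.967) were higher, 1 of 3 tested T cell markers was lower (median -1.34), and 2 of 16 macrophage markers were higher and 2 lower. Their part in the Chi3l3 difference was not tested, and neither was that of library depth. The call did not hold with the DESeq2 Wald test (1.31, adjusted p = 0.0771), nor in 8 of the 39 fits that each left out 1 library, which were those without mTORi-HDL replicates 6 or 7 or without S6K1i-HDL replicates 3, 4, 5, 6, 8 or 9 (adjusted p = 0.0522 to 0.0795).

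Chi3l3 in TRAF6i-HDL had a lowest value of 0, a median of 5.31 and a highest value of 8.41 CPM, against 0, 8.82 and 50.6 CPM in PBS. All 10 TRAF6i-HDL libraries lay below the means of both mTORi-HDL and PBS. TRAF6i-HDL was -0.96 ± 0.46 against PBS (adjusted p = 0.429) and -1.24 ± 0.43 against mTORi-HDL (adjusted p = 0.106). S6K1i-HDL against PBS gave -1.16 ± 0.45 (adjusted p = 0.0821), and mTORi-HDL against PBS gave 0.28 ± 0.41 (adjusted p = 0.759). Without PBS replicates 7 to 10 these comparisons with PBS gave -0.21, -0.42 and 1.02 for TRAF6i-HDL, S6K1i-HDL and mTORi-HDL, at adjusted p = 0.876, 0.611 and 0.16. Over all PBS libraries the S6K1i-HDL difference passed with limma-voom (-1.36, adjusted p = 0.042), with S6K1i-HDL replicates 1 to 6 kept alone (-1.69, adjusted p = 0.0268), and without S6K1i-HDL replicate 7 (-1.70, adjusted p = 0.00985), and missed the threshold in 13 of 15 alternatives (adjusted p up to 0.767). The highest PBS value came from replicate 9, with 4 counts among 50091. The summed level of 8 neutrophil markers, cells whose precursors also carry Ym1 in the mouse, had medians of 25.6 CPM in TRAF6i-HDL, 39.3 CPM in mTORi-HDL, 28.0 CPM in S6K1i-HDL and 40.8 CPM in PBS. Their ranges were 18.2 to 53.4, 17.8 to 60.7, 19.7 to 134 and 20.4 to 82.7 CPM, and their part in the Chi3l3 values was not tested. Cxcr2 and Mmp8 had the highest means of this list in each group. Ngp had 2, 6, 1 and 1 counts in the same order of groups, Camp 0, 2, 0 and 1, and Ltf 7, 1, 13 and 5.

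**Figure D3:**
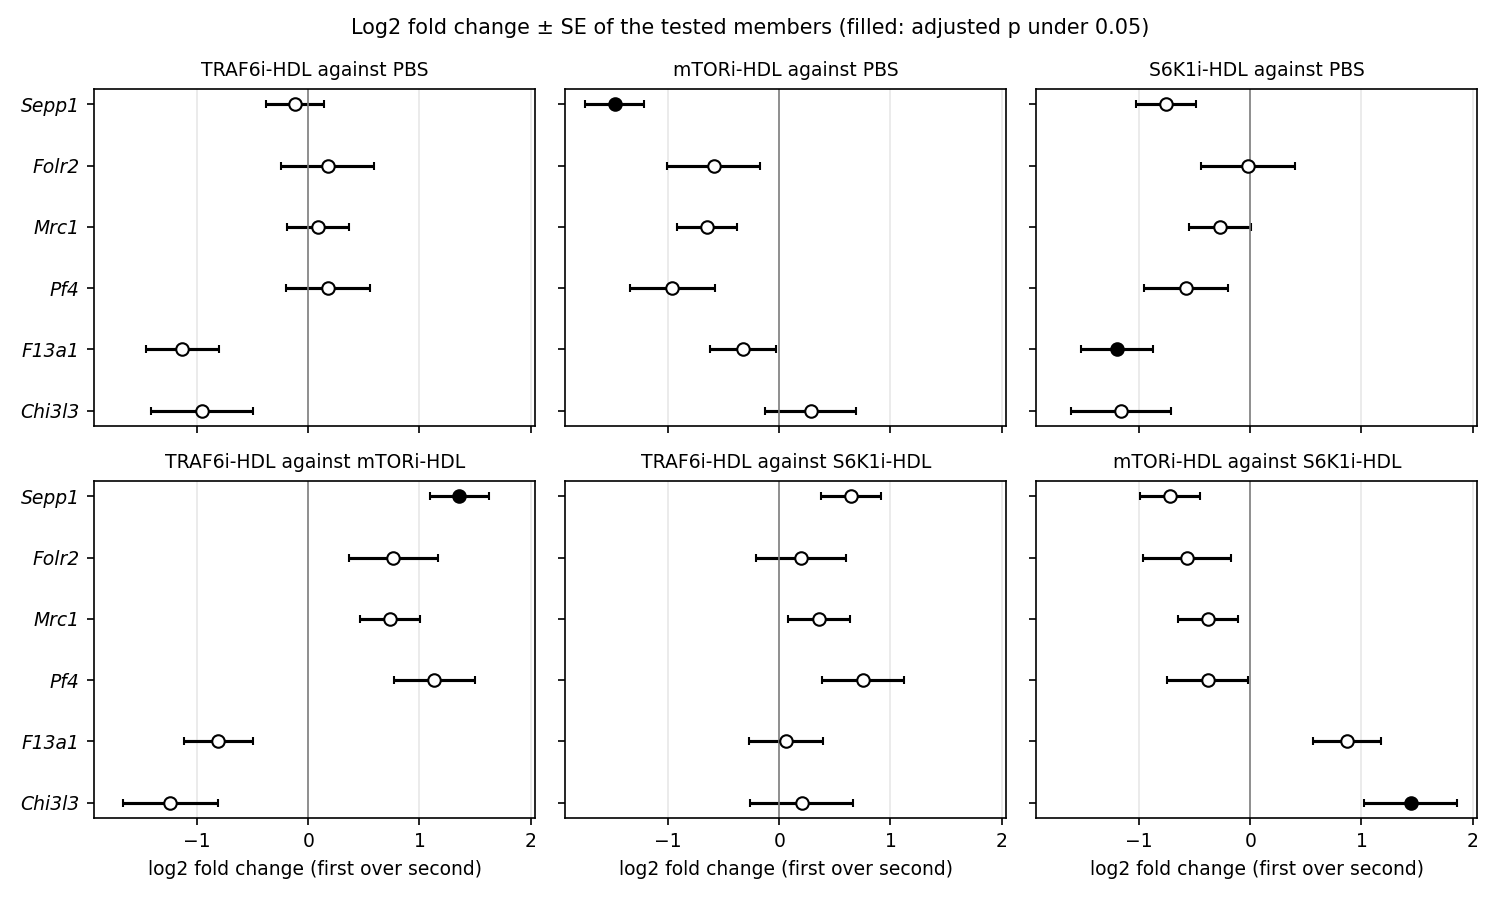
Log2 fold change ± SE of the 6 tested members in each of the 6 comparisons, first-named group over second, with filled points where the adjusted p was under 0.05. Filled points stand for Sepp1 in mTORi-HDL against PBS (-1.48) and in TRAF6i-HDL against mTORi-HDL (1.36), F13a1 in S6K1i-HDL against PBS (-1.20) and Chi3l3 in mTORi-HDL against S6K1i-HDL (1.44).

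Arg1, the arginase that drains arginine from nitric oxide synthesis, had 23 counts in TRAF6i-HDL, 64 in mTORi-HDL, 35 in S6K1i-HDL and 23 in PBS. Summed CPM was 1.21 in TRAF6i-HDL (interval 0.765 to 1.81), 2.08 in mTORi-HDL (interval 1.6 to 2.65), 1.04 in S6K1i-HDL (interval 0.721 to 1.44) and 1.56 in PBS (interval 0.987 to 2.34), with exact Poisson intervals. It was detected in 6 of 10, 9 of 10, 8 of 9 and 9 of 10 libraries. With no low-count filter, mTORi-HDL against S6K1i-HDL was 0.94 ± 0.53 (adjusted p = 0.343) and mTORi-HDL against PBS was 0.36 ± 0.55 (adjusted p = 0.811).

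Retnla, a secreted product of alternatively activated macrophages also called FIZZ1, had 3 counts in all 39 libraries. There were 0 in TRAF6i-HDL and 0 in mTORi-HDL, which allows up to 0.157 and 0.0974 CPM at 3 counts a group. S6K1i-HDL had 2 counts, both in replicate 2, and PBS had 1, in replicate 8. No difference between groups was detectable at this depth.

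**Figure D4:**
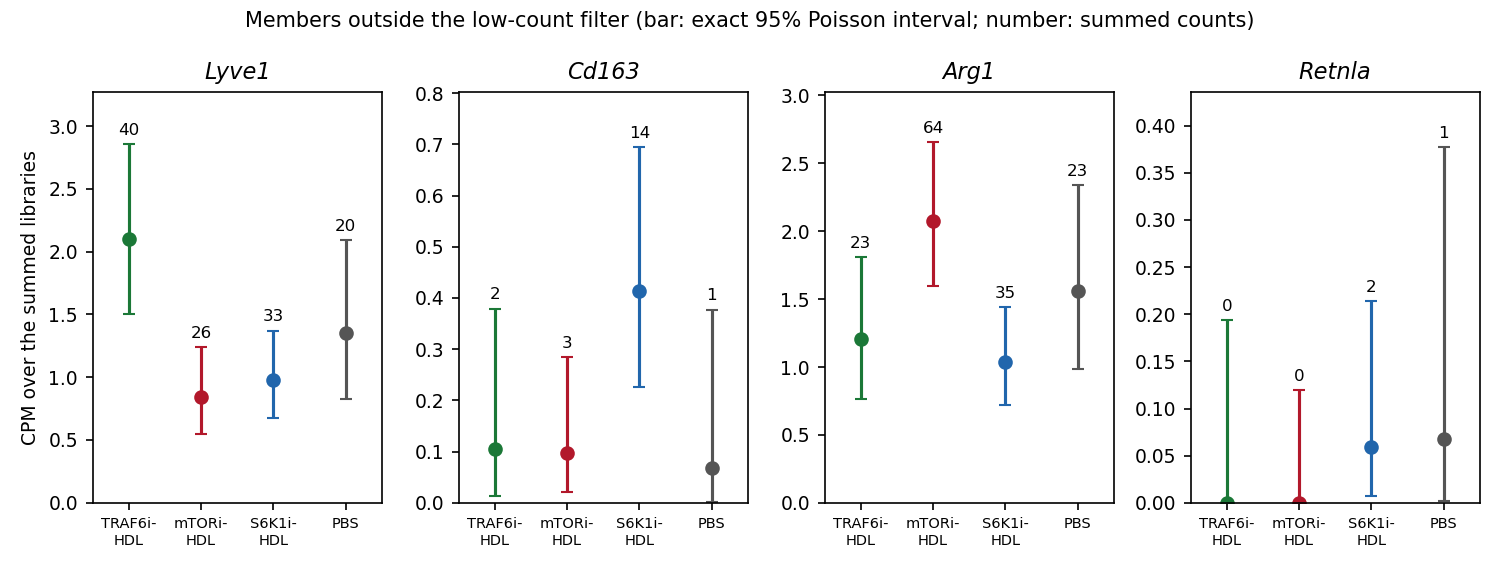
CPM of Lyve1, Cd163, Arg1 and Retnla over the summed libraries of each group, with exact 95% Poisson intervals as bars and the summed counts as numbers. The intervals cover counting error alone; Lyve1 is highest in TRAF6i-HDL (2.1), Arg1 in mTORi-HDL (2.08) and Cd163 in S6K1i-HDL (0.414), and Retnla has 3 counts in all.

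The tested members had a median log2 fold change of -0.015 in TRAF6i-HDL against PBS, -0.62 in mTORi-HDL against PBS and -0.67 in S6K1i-HDL against PBS, beside medians of 0.00052, 0.0080 and 0.0032 over all genes. Those below 0 were 3 of 6 in TRAF6i-HDL, 5 of 6 in mTORi-HDL and 6 of 6 in S6K1i-HDL against PBS, which share the PBS libraries. These tallies changed with the fit. With the Rn45s covariate they were 2, 4 and 2 of 6, and the S6K1i-HDL median turned to 0.17. Without PBS replicates 7 to 10 they were 5, 4 and 6 of 6, with medians of -0.31, -0.93 and -0.59, and with the macrophage marker covariate they were 6, 5 and 5 of 6. Between inhibitors the medians were 0.75 in TRAF6i-HDL against mTORi-HDL, 0.28 in TRAF6i-HDL against S6K1i-HDL and -0.38 in mTORi-HDL against S6K1i-HDL. Signs were mixed in TRAF6i-HDL against mTORi-HDL, where Sepp1, Pf4, Folr2 and Mrc1 had positive values and F13a1 and Chi3l3 negative ones.

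Across libraries within groups, the members were compared in pairs. After each group's mean was taken off, Sepp1 had negative correlations with F13a1 (r = -0.465, rho = -0.407) and with Chi3l3 (r = -0.431, rho = -0.380), and positive ones with Pf4 (r = 0.41, rho = 0.388) and Folr2 (r = 0.407, rho = 0.289), over 36 libraries. Mrc1 had positive ones with F13a1 (r = 0.377, rho = 0.322) and Pf4 (r = 0.332, rho = 0.328). Of the 15 pairs of members, none passed after Benjamini-Hochberg adjustment in permutation tests with 100000 resamples, two-sided. The permutation p was 0.0265 for Sepp1 and F13a1, 0.0285 for Sepp1 and Chi3l3, 0.009 for Sepp1 and Pf4, 0.0379 for Mrc1 and F13a1 and 0.0388 for Mrc1 and Pf4, each 0.116 adjusted. For Sepp1 and Folr2 it was 0.0556, and 0.139 adjusted, and it was 0.068 or more for the other 9 pairs. By rank the permutation p was 0.0358, 0.0359, 0.0238, 0.0751, 0.0535 and 0.133 for these 6 pairs in that order, and 0.18 to 0.285 adjusted. Without the 2 libraries farthest from the median of the first-named gene, r was -0.361, -0.348, 0.366, 0.237, 0.155 and 0.244. With the Rn45s share also taken off, r was -0.503, -0.377, 0.0324, 0.435, 0.21 and 0.223.

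The tested genes whose levels followed each member most closely, by Pearson's r after group means were taken off in 36 libraries, were fixed at 3 a member. For Sepp1 they were Abcg1, a cholesterol exporter (r = 0.82), Man2a1, a Golgi mannosidase (0.809), and C1qb, a chain of complement C1q (0.808). Those of Folr2 were Tfrc, the transferrin receptor (0.789), Plek, pleckstrin (0.783), and Ccl19, a chemokine (0.746), and those of Mrc1 were Msr1, a scavenger receptor (0.724), Tgfbi (0.695) and Ctsc, cathepsin C (0.662). F13a1 was followed by Pigs (0.718), Clec5a, a myeloid lectin (0.699), and Agpat4 (0.662). Pf4 was followed by Srgn, serglycin, a granule proteoglycan (0.665), Ier3ip1 (0.665) and Atp5l (0.664), and Chi3l3 by Nrep (0.751), Mad2l2 (0.749) and Galk1 (0.728). By rank, the genes of Chi3l3 were less close, at rho = 0.545, 0.497 and 0.507 in that order. For the genes of the other members rho was 0.604 to 0.763. All genes of a library share its depth and Rn45s share, and both differed between the 36 libraries. The 99th percentile of r over 10405 genes was 0.653 for Sepp1 and between 0.486 and 0.575 for the other members.

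Of 30 other resident-like genes, 19 were tested. In mTORi-HDL against PBS, where 1.02% of all genes were called lower, 2 were lower and 0 higher: Gas6, a bridging ligand for the clearance of dead cells (-0.76 ± 0.19, adjusted p = 0.0201), and Maf, a transcription factor of tissue macrophages (-0.69 ± 0.18, adjusted p = 0.0247). Of the 20 tested without PBS replicates 7 to 10, 6 were lower, with Gas6 and Maf among them, and 0 higher, beside 11.7% of all genes called in either direction. In TRAF6i-HDL against PBS, where 0.0192% of all genes passed, 1 was higher and 0 lower, Stab1, a scavenger receptor (1.12 ± 0.19, adjusted p = 0.00238). Stab1 was also higher in S6K1i-HDL than in PBS (1.13 ± 0.19, adjusted p = 0.000237), with the complement gene C4b (0.70 ± 0.21, adjusted p = 0.025), and 0 were lower, beside 11.9% of all genes called. Without those PBS libraries 2 were higher in S6K1i-HDL, Stab1 and Siglec1, and 2 lower, Cd5l and Hmox1, beside 17.7% of all genes. In TRAF6i-HDL against mTORi-HDL, where 1.56% of all genes were called higher, 6 were higher and 0 lower. The first 5 by p were Tcn2, a carrier of vitamin B12 (0.86 ± 0.14), Siglec1, a sialic acid receptor (1.57 ± 0.34), Cd5l, a secreted macrophage protein (2.74 ± 0.63), Stab1 (0.70 ± 0.18) and Gas6 (0.70 ± 0.18), at adjusted p = 0.000215, 0.0062, 0.0115, 0.0189 and 0.0255. In mTORi-HDL against S6K1i-HDL, where 6.18% of all genes were called, 5 were lower and 0 higher, which were Siglec1 (-1.77), Tcn2 (-0.63), Stab1 (-0.72), Gas6 (-0.67) and C4b (-0.68). None passed in TRAF6i-HDL against S6K1i-HDL, where 1 had an unadjusted p under 0.05. The median of the 19 was 0.28 in TRAF6i-HDL against PBS, -0.22 in mTORi-HDL against PBS and 0.085 in S6K1i-HDL against PBS, and 0.43, 0.045 and -0.31 in the 3 comparisons between inhibitors in the order used above.

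Of 30 other genes of alternative activation and interleukin-4 signalling, 29 were in the files and 18 were tested. In mTORi-HDL against PBS, beside 1.64% of all genes called, 1 was higher, Ccl22, a chemokine (2.00 ± 0.54, adjusted p = 0.0456), and 2 were lower, Il10ra, a chain of the interleukin-10 receptor (-0.68 ± 0.16, adjusted p = 0.0151), and Clec7a, the glucan receptor Dectin-1 (-0.79 ± 0.19, adjusted p = 0.0221). Without PBS replicates 7 to 10, 3 of 21 were higher and 3 lower there, with these 3 genes among them, and in S6K1i-HDL against PBS 1 was higher (Fn1) and 1 lower (Clec7a), beside 11.7% and 17.7% of all genes. In TRAF6i-HDL against mTORi-HDL (2.92% of all genes called), Il10ra was higher (0.96 ± 0.15), and Egr2, an early growth response factor (-0.85 ± 0.17), Ccl22 (-2.26 ± 0.54) and Fn1, fibronectin (-0.92 ± 0.25), were lower. In mTORi-HDL against S6K1i-HDL (6.18% of all genes called), Klf4, a transcription factor (0.91 ± 0.18), Mmp12, the macrophage elastase (1.69 ± 0.36), and Ccl22 (1.59 ± 0.50) were higher and Il10ra was lower (-0.69 ± 0.15). Mmp12 averaged 6231 ± 3974 CPM in mTORi-HDL (SD, n = 10) and 1932 ± 688 CPM in S6K1i-HDL (SD, n = 9). Egr2 was the one that passed in TRAF6i-HDL against S6K1i-HDL, where it was lower (-0.72 ± 0.18, adjusted p = 0.0242) and 1.59% of all genes were called. None passed in TRAF6i-HDL or S6K1i-HDL against PBS in edgeR's test over all libraries, where 1 and 7 had an unadjusted p under 0.05, beside 11.1% and 27% of all genes. The list's median lay at 0.031, 0.21 and 0.16 against PBS in TRAF6i-HDL, mTORi-HDL and S6K1i-HDL.

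**Figure D5:**
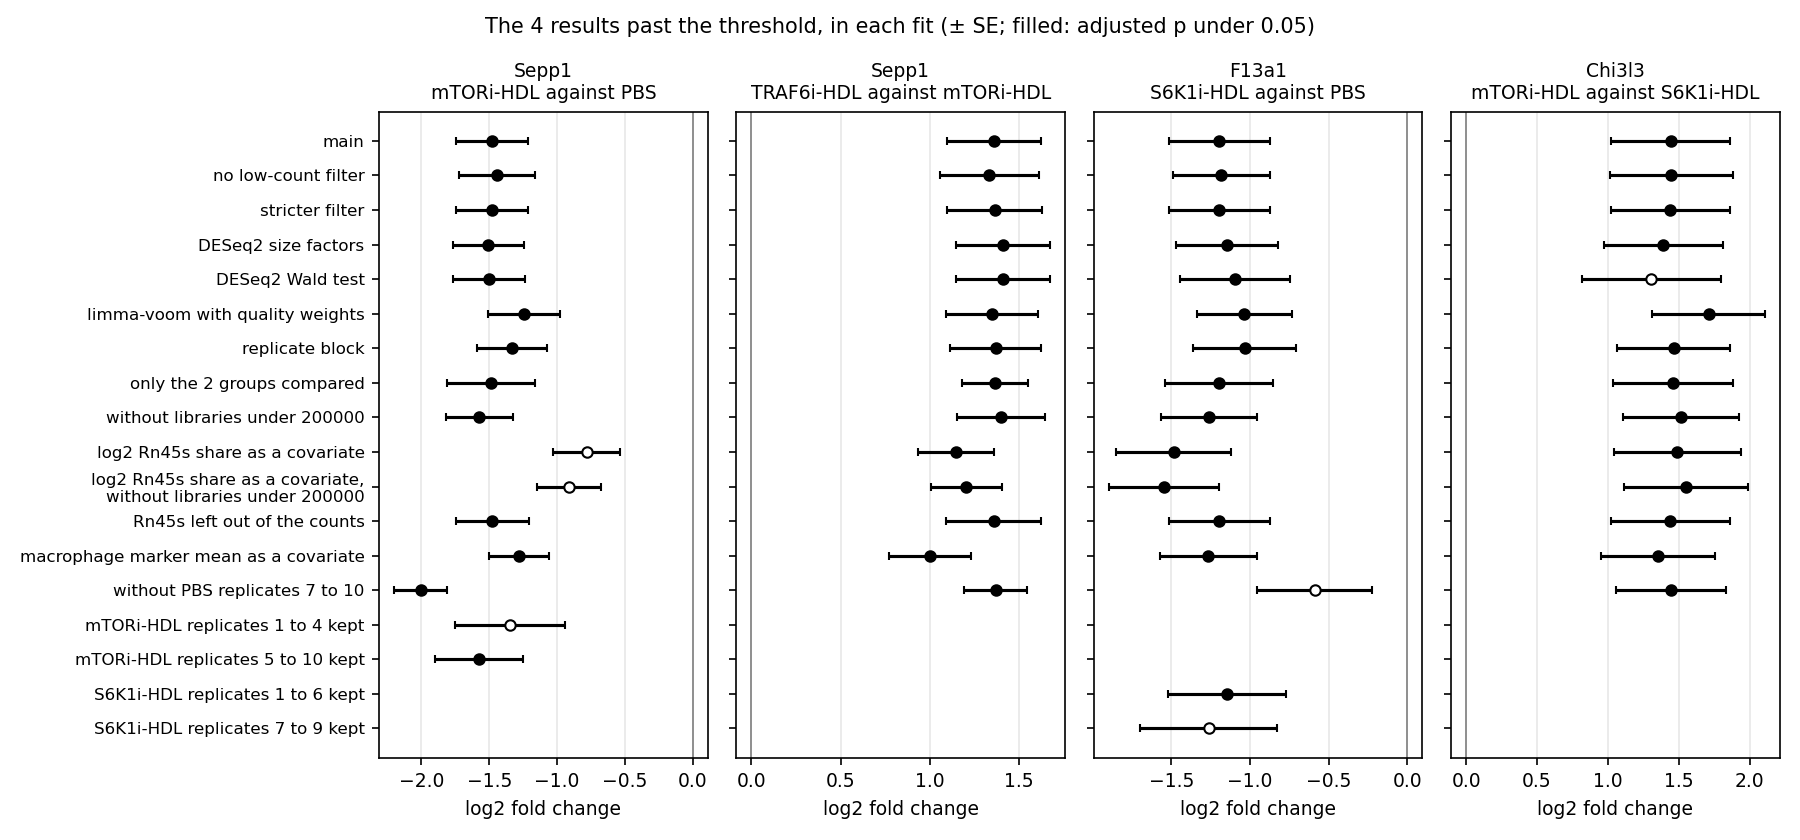
Log2 fold change ± SE of the 4 results past the threshold in the main fit (top) and in each alternative fit, with filled points where the adjusted p was under 0.05. Sepp1 in TRAF6i-HDL against mTORi-HDL stays filled in each fit shown (1.00 to 1.41), and open points appear for Sepp1 in mTORi-HDL against PBS with the Rn45s covariate (-0.78 and -0.91) and with mTORi-HDL replicates 1 to 4 kept (-1.35), for F13a1 without PBS replicates 7 to 10 (-0.59) and with S6K1i-HDL replicates 7 to 9 kept (-1.26) and for Chi3l3 with the DESeq2 Wald test (1.31).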

How the data were processed

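The deposited files hold counts of reads per gene, 1 file a sample, for 24062 mouse symbols and 5 closing lines of unassigned reads, which were left out. The tools, per the submitters' processing notes, were HTSeq 0.6.1, TopHat2 2.1.0 and Bowtie2 2.2.8. The notes name a human build, hg19, which cannot underlie mouse symbols, so no coordinates come from the counts. The build, annotation and strand setting behind them are not given in the sources used here. Whole-transcriptome amplification preceded sequencing, so counts are not independent molecules, and intervals and floors of 3 counts cover counting error only.

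Counts were fitted in R 4.3.3 with edgeR 4.0.16 (filterByExpr, TMM factors, robust glmQLFit, glmQLFTest) over all 39 samples with group as the only term, which left 10411 genes. CPM values use TMM-scaled library sizes, log2 CPM a prior count of 2, and standard errors are the log2 fold change divided by the root of F. For the sparse members, counts and TMM-scaled sizes were summed over a group's libraries. The 95% intervals of log2 fold changes take them as normal. Alternatives used limma 3.58.1 and DESeq2 1.42.0, and the fit was tested on simulated data. Figures used Python 3.11.15 and matplotlib 3.10.9, and transcripts were aligned with Biopython 1.88. Exon lengths came from GENCODE vM21 and promoters from RefSeq, GRCm38.p6.

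All 10 members are named. Of each list of other genes, those past the threshold are named, at most 5 a comparison by p, and for each tested member the 3 genes most like it. The members, lists and tests were chosen with earlier results of these data known.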

Additional observations from a re-analysis of the deposited data

Results flagged for a closer look

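In 38 groups of values with any spread (10 members in 4 groups), 9 held a sample whose gap to its nearest neighbour was large for the range of the group by Dixon's criterion. For continuous, normal values chance gives about 1 in 20 such groups. That rate does not hold for groups of near-zero counts, where a single detection makes such a gap by construction, so the number of gaps was not set against it. Their causes were not tested.

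Mrc1 in TRAF6i-HDL replicate 8 stood at 136.3 CPM (62 counts), where the next highest library had 74.2 CPM. In mTORi-HDL replicate 10, Mrc1 stood at 51.96 CPM (181 counts), where the next had 37.29 CPM. TRAF6i-HDL replicate 8 also had the highest Arg1 level of its group, 6.595 CPM from 3 counts.

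F13a1 in S6K1i-HDL replicate 1, at 39.53 CPM, rested on 5 counts in a library of 118527. In PBS replicate 9, which held 50091 counts, Chi3l3 at 50.56 CPM rested on 4 counts and Arg1 at 12.64 CPM on 1 count. The call of F13a1 in S6K1i-HDL against PBS held without the 3 libraries under 200000 counts.

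Other gaps came from single detections. Cd163 in PBS replicate 10 was 0.3057 CPM from 1 count, Retnla in PBS replicate 8 was 0.5654 CPM from 1 count, and Retnla in S6K1i-HDL replicate 2 was 0.7728 CPM from 2 counts, where the other libraries of each group had 0.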

How the results depend on the processing

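The alternatives were 2 other low-count filters, DESeq2 size factors, the DESeq2 Wald test, limma-voom with quality weights, a replicate block, only the 2 groups compared, the 3 libraries under 200000 counts left out, the log2 Rn45s share as a covariate (with and without those libraries), Rn45s left out of the counts, a looser threshold, runs of replicates kept apart, and each of the 39 libraries left out. The mean of the macrophage markers as a covariate, and leaving out PBS replicates 7 to 10, were added after the data were seen. Where a call or a sign changed, the cause was not tested.

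Sepp1 in TRAF6i-HDL against mTORi-HDL kept its direction and its call in 13 of 13 alternatives (log2 1.00 to 1.41, adjusted p = 8.51e-07 to 0.025) and in 39 of 39 fits without 1 library (adjusted p = 0.000467 to 0.00684). In mTORi-HDL against PBS the calls went to 0 with the Rn45s covariate (Sepp1 -0.78, adjusted p = 0.212). They were also 0 with that covariate and without the low libraries (-0.91, adjusted p = 0.075). With mTORi-HDL replicates 1 to 4 kept they were 0 as well (-1.35, adjusted p = 0.111). These fits called 0.202%, 0.314% and 0.969% of all genes in that order, beside 1.64% as reported. The 39 fits without 1 library kept 1 call. F13a1 in S6K1i-HDL against PBS stayed as large with S6K1i-HDL replicates 7 to 9 kept (-1.26), but did not pass (0 calls, adjusted p = 0.413), in a fit where 1 of 11416 genes did. It also lost its call without PBS replicates 7 to 10 (adjusted p = 0.273), and held it in 39 of 39 fits without 1 library (adjusted p = 0.00481 to 0.0262).

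Without PBS replicates 7 to 10 the calls were 3 in mTORi-HDL against PBS, 1 in TRAF6i-HDL against S6K1i-HDL (Sepp1) and 2 in mTORi-HDL against S6K1i-HDL (Chi3l3 and Sepp1), beside 11.7%, 2.12% and 6.55% of all genes. The signs that turned there were -0.40 for Folr2 and -0.17 for Pf4 in TRAF6i-HDL against PBS and 0.28 for F13a1 in mTORi-HDL against PBS.

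At an adjusted p under 0.2 the members called were 1, 3 and 3 against PBS in TRAF6i-HDL, mTORi-HDL and S6K1i-HDL. Between inhibitors they were 5 in TRAF6i-HDL against mTORi-HDL, 0 in TRAF6i-HDL against S6K1i-HDL and 3 in mTORi-HDL against S6K1i-HDL. The share of all genes at that looser threshold was not computed, so these counts are not read as a result about the members. The counts that follow are again at an adjusted p under 0.05. In S6K1i-HDL against PBS there were 2 with limma-voom, 2 without the low libraries and 2 with S6K1i-HDL replicates 1 to 6 kept, beside 18.5%, 11.9% and 12.6% of all genes (11.9% as reported). TRAF6i-HDL against mTORi-HDL had 3 with the DESeq2 Wald test, 2 with limma-voom and 3 with only these groups fitted, beside 4.29%, 5.82% and 3.2% of all genes (2.92% as reported), and TRAF6i-HDL against S6K1i-HDL had 1 with only those groups (2.93% of all genes). mTORi-HDL against S6K1i-HDL had 3 with limma-voom, with only these groups, and with the Rn45s covariate in both forms, and 2 without the low libraries and with the macrophage covariate. The shares of all genes were 17.8%, 10.4%, 7.81%, 8.74%, 6.45% and 7.26% in that order (6.18% as reported). Over the fits without 1 library the counts were 1 to 2 in S6K1i-HDL against PBS, 1 to 2 in TRAF6i-HDL against mTORi-HDL and 0 to 2 in mTORi-HDL against S6K1i-HDL. The share of all genes called was not computed for the fits without 1 library.

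No value past the threshold changed sign. Among the others, with the Rn45s covariate, and with it and without the low libraries, the log2 differences were 0.36 and 0.29 for Sepp1 in TRAF6i-HDL against PBS, 0.071 and 0.051 for Folr2 in mTORi-HDL against PBS, and -0.21 and -0.22 for Folr2 in TRAF6i-HDL against S6K1i-HDL. In S6K1i-HDL against PBS the same fits gave 0.94 and 0.93 for Folr2, 0.11 and 0.049 for Mrc1, 0.40 and 0.40 for Pf4, and 0.24 and 0.063 for Sepp1. With the macrophage covariate, TRAF6i-HDL against PBS turned to -0.093 for Folr2, -0.096 for Mrc1 and -0.15 for Pf4, and Folr2 turned to 0.27 in S6K1i-HDL against PBS and -0.36 in TRAF6i-HDL against S6K1i-HDL. With mTORi-HDL replicates 1 to 4 kept, Chi3l3 was -0.46 and Folr2 0.18 against PBS, and with S6K1i-HDL replicates 7 to 9 kept, Folr2 was 0.31 and Mrc1 0.12. Sepp1 in TRAF6i-HDL against PBS was 0.10 with limma-voom, and Folr2 in S6K1i-HDL against PBS was 0.0040 with no filter, 0.025 with DESeq2 size factors and 0.46 with limma-voom. F13a1 in TRAF6i-HDL against S6K1i-HDL was -0.0078 with the DESeq2 Wald test. Without 1 library, signs also crossed 0 in TRAF6i-HDL against PBS for Mrc1 (-0.094 to 0.35), Pf4 (-0.0025 to 0.29) and Sepp1 (-0.23 to 0.085), in S6K1i-HDL against PBS for Folr2 (-0.16 to 0.27) and in TRAF6i-HDL against S6K1i-HDL for F13a1 (-0.078 to 0.18).

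Same-numbered replicates did not deviate together: over 57 pairs of different groups r was -0.208 to 0.287 (median 0.012), 7 pairs were over 0.1, and 6 of 39 libraries were closest to one with their own number. The replicate block gave 2 calls in TRAF6i-HDL against mTORi-HDL (Sepp1, and Mrc1 at 0.77, adjusted p = 0.0495), beside 2.54% of all genes (2.92% as reported). The block left the other counts of members as they were. It turned Sepp1 in TRAF6i-HDL against PBS to 0.036 and Folr2 in S6K1i-HDL against PBS to 0.27. Depth limits Lyve1, Cd163, Arg1 and Retnla most, and the low libraries give single counts a large CPM.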
